A study of Mus musculus with 4 samples.

Results

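The 10 genes Itga1, Itga2, Itga3, Itga4, Itga5, Itga6, Itgav, Itgb3, Itgb5 and Itgb8 encode subunits of integrins that bind the extracellular matrix, and all 10 were found by symbol among the 24873 genes in the table. They were followed in RNA-Seq of cerebral cells of mice, with 2 libraries from untreated controls and 2 from mice given tamoxifen. The mice are named by the VE-cadherin cre/ERT2 and Mgp fl/fl alleles. All of them carried both, namely a tamoxifen-activated Cre recombinase driven by the endothelial VE-cadherin (Cdh5) promoter and a floxed Mgp gene, which encodes matrix Gla protein, an inhibitor of bone morphogenetic proteins. Daily tamoxifen doses of 75 mg/kg over 5 days began when the mice were 10 weeks old, the cells were taken on day 9, and each library pooled cells of 3 mice. The controls received no tamoxifen, so the drug and the deletion cannot be told apart within these libraries. The study's methods describe sorted CD31+CD45- cells, whereas the sample labels describe brain cells positive for the tdTomato reporter.

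Integrins are paired receptors of 1 alpha and 1 beta chain that fasten cells to the matrix and pass signals through the membrane in both directions. The alpha chain largely sets which ligand is bound, with collagen and laminin receptors built on the beta 1 chain and the alpha v receptors recognizing the short arginine-glycine-aspartate (RGD) motif of fibronectin, vitronectin, osteopontin and latent TGF-beta. In brain vessels, beta 1 integrins of endothelial cells contact the laminin and collagen IV of the basement membrane, and the alpha v beta 8 receptor of neuroepithelial cells and astrocytes activates latent TGF-beta beside the vessel.

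The values are normalized counts, that is, reads on a gene divided by 1 factor per library. The libraries held 35387438 to 49799321 reads on genes, and where a gene has 0 reads up to 3 remain possible (2.16 to 4.11 normalized counts, depending on the library), a limit that covers counting error only. Pairs of values are given for library 1 and then library 2 of a group. A gene passed the test at an adjusted p under 0.05 from limma on log2(normalized count + 1), fitted over the 20485 genes whose mean reached 10, and log2 fold changes are tamoxifen minus control on that scale. Of these genes, 12071 passed, and 6843 of them (56.7%) were higher with tamoxifen, while 6539 passed without tamoxifen library 1 and 5577 without library 2. This split became 76.0% higher when the libraries were rescaled to equal totals and 43.5% under quantile normalization, with the median log2 fold change of all genes moving from 0.05 to 0.52 and -0.23. Mgp itself measured 1094 and 1352 in the controls and 945 and 909 with tamoxifen, lower in both libraries but not past the test (log2 fold change -0.39, SE 0.18, adjusted p = 0.0986). Its reads were summed over the gene, so the floxed part was not measured alone.

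Of the alpha chain genes Itga1 to Itga6, 5 fell, whereas the 4 genes of the alpha v group rose. The collagen receptor chain Itga1, the laminin receptor chains Itga3 and Itga6 and the fibronectin receptor chains Itga4 and Itga5 were lower with tamoxifen, whereas Itgav and its partners Itgb3, Itgb5 and Itgb8 were higher. In all, 9 of the 10 genes passed, 4 higher and 5 lower, against 58.9% of all tested genes, 33.4% higher and 25.5% lower. The 2 groups did not overlap for 9 of the 10, against 82.3% of all tested genes (4 with both tamoxifen libraries above, against 43.1%, and 5 with both below, against 39.2%), and 7 of the 10 also exceeded an absolute log2 fold change of 1, against 44.7%. Passing was thus common in this comparison, and the 10 genes had a median log2 fold change of 0.04, beside 0.05 over everything tested. Expressed per kilobase of exon, Itgav, Itgb3, Itgb5 and Itgb8 together made up 4.13% and 4.46% of the 10 genes in the controls and 22.5% and 31.4% with tamoxifen.

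**Figure D1:**
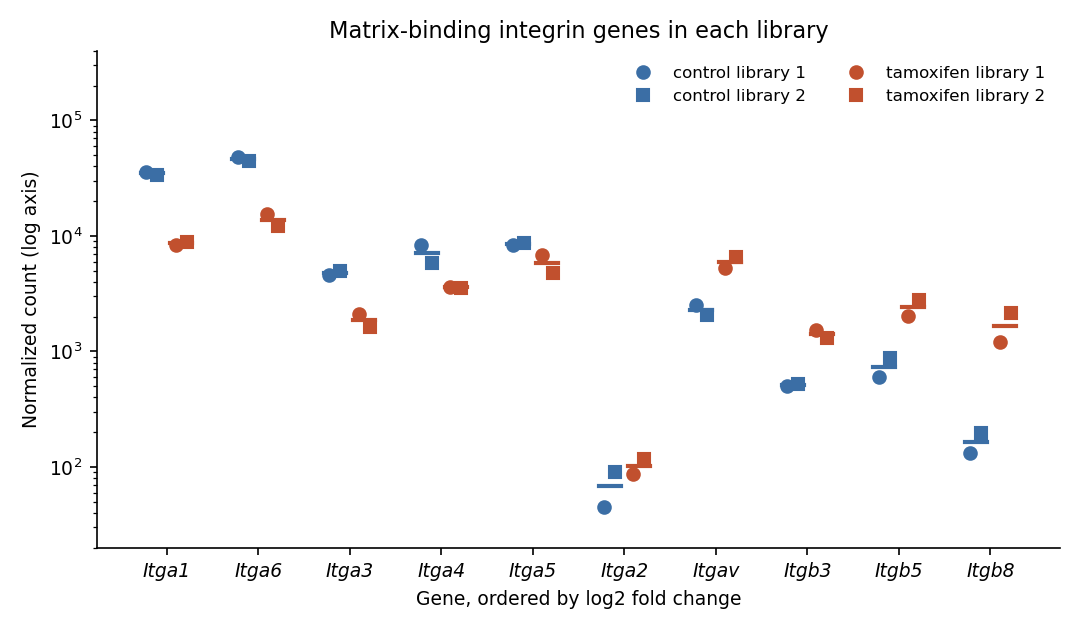
Normalized counts (log axis) of the 10 matrix-binding integrin genes in the 2 control libraries (blue) and the 2 tamoxifen libraries (orange), with circles for library 1, squares for library 2 and short lines for group means. Itga1 and Itga6 sit highest in the controls and drop with tamoxifen, while Itgb8 climbs from 133 and 198 to 1204 and 2143 and Itga2 overlaps between the groups.

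Promoter sequence is shown for the genes with the largest fall and rise, Itga1 and Itgb8, and for the other genes whose promoter held the E-box CACCTG, Itga3 and Itgb5. This hexamer is bound by SNAI and ZEB repressors, which are known for their part in mesenchymal transitions, the process the study followed. Sequences are the 250 bases before the start in RefSeq (GRCm38.p6), which had an entry for 8 of the 10 genes, 9 promoters in all since Itga3 has a pair. Capitals mark the E-box (CACCTG, or CAGGTG read on the other strand) and the GC box of SP family factors (GGGCGG or CCGCCC). The windows lie at chr13:115101965-115102214 on the minus strand for Itga1, chr11:95076715-95076964 minus for Itga3, chr16:33829415-33829664 plus for Itgb5 and chr12:119238277-119238526 minus for Itgb8.
Itga1: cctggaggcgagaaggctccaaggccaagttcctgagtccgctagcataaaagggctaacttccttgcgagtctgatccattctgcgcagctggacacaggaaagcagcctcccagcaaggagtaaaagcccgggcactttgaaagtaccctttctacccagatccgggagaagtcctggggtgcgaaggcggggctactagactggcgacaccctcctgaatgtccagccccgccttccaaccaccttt
Itga3: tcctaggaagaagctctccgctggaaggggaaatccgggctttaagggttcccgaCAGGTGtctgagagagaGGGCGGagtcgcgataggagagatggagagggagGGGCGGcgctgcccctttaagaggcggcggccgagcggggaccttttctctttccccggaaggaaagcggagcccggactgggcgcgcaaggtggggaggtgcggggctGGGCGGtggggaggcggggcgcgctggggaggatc
Itgb5: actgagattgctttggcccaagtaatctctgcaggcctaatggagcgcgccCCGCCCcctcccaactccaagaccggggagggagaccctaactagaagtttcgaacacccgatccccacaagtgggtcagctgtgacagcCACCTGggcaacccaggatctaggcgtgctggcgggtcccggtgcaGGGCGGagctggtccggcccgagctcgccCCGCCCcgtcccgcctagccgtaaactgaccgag
Itgb8: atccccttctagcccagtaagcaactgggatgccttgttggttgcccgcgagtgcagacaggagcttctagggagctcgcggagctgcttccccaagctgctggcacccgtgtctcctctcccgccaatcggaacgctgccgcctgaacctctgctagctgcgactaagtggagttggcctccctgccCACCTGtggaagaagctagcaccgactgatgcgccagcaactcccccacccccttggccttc

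The E-box began 195 bases before the start in Itga3, 109 bases before it in Itgb5 and 62 bases before it in Itgb8. Of the 9 promoters, these 3 held it, and of their genes Itga3 was lower with tamoxifen and Itgb5 and Itgb8 were higher. Over all 32851 promoters of the table, 17.2% held it. The GC box was found in 5 of the 9 promoters, those of 4 genes, against 32.7% of all promoters, with 3 copies each in the Itga3 and Itgb5 windows shown and none in those of Itga1 and Itgb8. The ETS core CCGGAA was found in 1 of the 9, the Itga3 promoter shown, against 3952 of all 32851 promoters, and the TATA box TATAAA in 0 against 12.4%. All letters were searched on both strands, and no matches of different motifs overlapped. These matches describe letters only and show no binding.

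Itga1 encodes the alpha 1 chain, which pairs with beta 1 as a receptor for collagens, including the collagen IV of basement membranes. The gene lies at chr13:115089632-115238677 on the minus strand (GRCm39, GENCODE M39). Its counts were 36077 and 33587 in the controls and 8417 and 8800 with tamoxifen. The libraries of each group were close together, and the groups were far apart. Itga1 was 4.04-fold lower (log2 fold change -2.02, SE 0.18, adjusted p = 9.70e-05), the largest fall of the 10, and passed under 14 of 14 alternative settings.

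Itga2 encodes the alpha 2 chain of the other classical collagen receptor of this group, best known from platelets and epithelia (chr13:114969617-115068636, minus). It was sparse in every library, with 45.2 and 91.4 in the controls and 87.8 and 118 with tamoxifen. The second control library lay above the first tamoxifen library, so the groups overlapped. The log2 fold change of 0.65 (SE 0.50) did not pass (adjusted p = 0.287), its 95% interval ran from -0.50 to 1.81, and its sign turned to -0.43 under quantile normalization. Itga2 was the lowest of the 10 genes in the controls and with tamoxifen.

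Itga6 encodes the alpha 6 chain, the main laminin receptor chain of brain endothelium (chr2:71575960-71689757, plus). It had 47734 and 44077 counts in the controls and 15371 and 12081 with tamoxifen. Every tamoxifen library lay far under every control library. The fall was 3.37-fold (log2 fold change -1.75, SE 0.22, adjusted p = 0.000384) and passed under 14 of 14 alternatives. Itga3 encodes alpha 3, which binds laminins that hold the alpha 5 chain (chr11:94935296-94967682, minus). Its counts were 4584 and 4966 in the controls and 2127 and 1632 with tamoxifen. The groups stood apart, and the fall of 2.56-fold (log2 fold change -1.36, SE 0.18, adjusted p = 0.000432) again passed under 14 of 14.

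Itga4 encodes the alpha 4 chain, which binds VCAM-1 and an alternatively spliced stretch of fibronectin (chr2:79085660-79163467, plus). It had 8317 and 5830 counts in the controls and 3630 and 3556 with tamoxifen. The controls were spread more widely than the tamoxifen libraries, which nearly coincided below them. Itga4 fell 1.94-fold (log2 fold change -0.95, SE 0.20, adjusted p = 0.00416). The call was lost at equal library totals (-0.48, adjusted p = 0.0665) and when tamoxifen library 1 (adjusted p = 0.0958) or 2 (adjusted p = 0.108) was left out. Exons of the neighbouring gene Cerkl on the opposite strand cover 20.8% of its exon bases, and the strand setting of the counting is not stated.

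Itga5 encodes the alpha 5 chain of the classical fibronectin receptor (chr15:103252713-103275270, minus). Its counts were 8299 and 8767 in the controls and 6808 and 4769 with tamoxifen. Both tamoxifen libraries lay below both controls, but library 2 much further than library 1. The fall of 1.50-fold was the least of the 5 (log2 fold change -0.58, SE 0.20, adjusted p = 0.0381), and it passed under 7 of 14 alternatives. Without tamoxifen library 2 it was -0.33 (adjusted p = 0.134), and leaving out control library 1 or 2 also ended the call (adjusted p = 0.0716 and 0.102). At equal totals and under quantile normalization it was -0.11 (adjusted p = 0.602 and 0.611), which under quantile normalization lay 0.12 above the median of all genes.

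Itgav encodes alpha v, the shared alpha chain of the RGD receptors with beta 3, beta 5 and beta 8 (chr2:83554403-83637260, plus). It had 2518 and 2056 counts in the controls and 5231 and 6545 with tamoxifen. The tamoxifen libraries were both above the controls, library 2 more so. The rise was 2.57-fold (log2 fold change 1.36, SE 0.18, adjusted p = 0.000488) and passed under 14 of 14 alternatives.

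Itgb3 encodes beta 3, which pairs with alpha v in activated vessels and with alpha IIb (Itga2b) in platelets (chr11:104498826-104561302, plus). It had 500.0 and 523 counts in the controls and 1547 and 1309 with tamoxifen. The controls nearly coincided, and tamoxifen library 1 was the higher of its group, unlike for the other 3 genes that rose. The rise was 2.78-fold (log2 fold change 1.47, SE 0.18, adjusted p = 0.000357) and passed under 14 of 14.

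Itgb5 encodes beta 5, the partner of alpha v in a vitronectin receptor (chr16:33649988-33771137, plus). Its counts were 601 and 876 in the controls and 2034 and 2798 with tamoxifen. Library 2 was the higher in each group, and the groups did not overlap. The rise was 3.28-fold (log2 fold change 1.72, SE 0.24, adjusted p = 0.000610), and the call was lost without tamoxifen library 2 (1.49, adjusted p = 0.0658) but under none of the other 13 alternatives.

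Itgb8 encodes beta 8, whose receptor with alpha v binds latent TGF-beta and releases its activity (chr12:119121748-119202584, minus). It had 133 and 198 counts in the controls and 1204 and 2143 with tamoxifen. The gene was scarce in both controls and was highest in tamoxifen library 2. Itgb8 rose 9.85-fold (log2 fold change 3.30, SE 0.33, adjusted p = 0.000133), the largest change of the 10 in either direction, and passed under 14 of 14 alternatives. The directions of the 9 genes that passed held at equal totals and under quantile normalization, where the calls of Itga5, and at equal totals that of Itga4, were lost.

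Between genes, levels can be compared per kilobase of exon. The order in the controls was Itga6 (4033 normalized counts per kilobase), Itga1 (1632.5), Itga5 (1603), Itga3 (820.2), Itga4 (423), Itgav (185), Itgb5 (105), Itgb3 (77.3), Itgb8 (14.7) and Itga2 (9.57). The values of Itga1 and Itga5 overlapped between libraries, as did those of Itgb8 and Itga2, whereas other neighbours did not. With tamoxifen the order was Itga6 (1206), Itga5 (1088), Itgav (477), Itga1 (403), Itgb5 (342), Itga3 (323), Itgb3 (216), Itga4 (215), Itgb8 (149) and Itga2 (14.4). Here Itga6 overlapped with Itga5, Itga1 with Itgb5, Itgb5 with Itga3 and Itgb3 with Itga4. Itgav thus moved from below Itga1, Itga3, Itga4, Itga5 and Itga6 to the next rank after Itga6 and Itga5, though well below both in level. Itga1 moved from beside Itga5 to below Itgav. With the length of the longest transcript in place of the exon union, the order in the controls was the same, and no neighbours overlapped. With tamoxifen Itga4 (361) then lay above Itgb3 (246), and the neighbours that overlapped were Itgav with Itga1, Itga3 with Itga4 and Itgb3 with Itgb8.

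**Figure D2:**
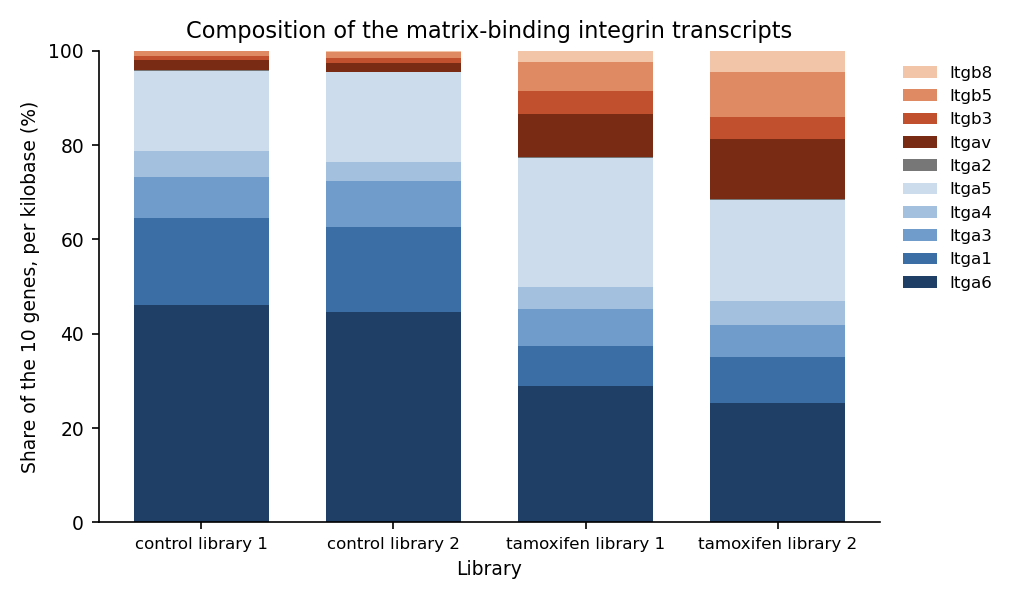
Share of each gene in the summed level per kilobase of the 10 matrix-binding integrin genes (percent), 1 bar per library. The collagen, laminin and fibronectin receptor chains (blue) fill nearly the whole of both control bars, whereas the alpha v group (orange to brown) takes 22.5% and 31.4% of the tamoxifen bars.

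Within the alpha v group, the share of Itgb8 among the beta chains Itgb3, Itgb5 and Itgb8, per kilobase, was 6.84% and 7.95% in the controls and 17.0% and 24.3% with tamoxifen. The share of Itgb3 (43.8% and 35.8%, then 37.2% and 25.2%) and that of Itgb5 (49.4% and 56.2%, then 45.8% and 50.5%) overlapped between the groups. By the length of the longest transcript, the Itgb5 share was narrowly lower with tamoxifen (55.6% and 62.1%, then 51.4% and 55.5%). For a single value in so few libraries, the smallest p that an exact two-sided permutation test allows is 0.333, so these shares carry no test. Itgb5 was the most abundant of the 3 in each library. In tamoxifen library 2 Itgb8 came close to Itgb3, and with the length of the longest transcript it lay above it (23.4% and 21.1%).

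The beta 1 chain Itgb1, a partner of Itga1 to Itga6 but not the only one of each, measured 42181 and 38734 in the controls and 24132 and 20370 with tamoxifen. Its fall was smaller than those of Itga1 and Itga6 (log2 fold change -0.87, SE 0.23, adjusted p = 0.0121), and it was lost under 5 of 14 alternatives. These were equal totals (-0.40, adjusted p = 0.0866), quantile normalization (-0.06, adjusted p = 0.754) and the omission of control library 1 (-0.80, adjusted p = 0.121), control library 2 (-0.93, adjusted p = 0.0595) or tamoxifen library 2 (-0.74, adjusted p = 0.0651). The ratio of Itga1 to Itgb1 counts was 0.855 and 0.867 in the controls and 0.349 and 0.432 with tamoxifen, and that of Itga6 to Itgb1 was 1.13 and 1.14, then 0.637 and 0.593. The ratio of Itgav to Itgb1 was higher with tamoxifen, at 0.217 and 0.321 after 0.0597 and 0.0531, and so was that of Itga5 to Itgb1, at 0.282 and 0.234 after 0.197 and 0.226. Summed per kilobase, Itga1 to Itga6 came to 1.24 and 1.28 times Itgb1 in the controls and 0.895 and 0.844 times with tamoxifen. With the length of the longest transcript this was 1.68 and 1.72, then 1.13 and 1.09, lower with tamoxifen but above 1 in every library. These ratios are within each library and do not depend on its scaling factor.

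The other integrin subunits mostly rose, where 33.4% of all tested genes were higher and 25.5% lower. Of the 16 listed, 15 passed the filter on low values (Itgb6, at 1.37 to 11.5 counts, did not), and 13 of these were higher, 2 lower and 0 not past the test, with a median log2 fold change of 2.14. Of the 13, Itga9 had no rise under quantile normalization (-0.0049, adjusted p = 0.986), where 9 of the 15 passed, and 8 and 6 passed without tamoxifen library 1 and 2. The largest rises were those of leukocyte integrin chains. Itgb2, the beta chain of leukocyte integrins, measured 60.3 and 78.9 in the controls and 2217 and 1645 with tamoxifen (log2 fold change 4.77, SE 0.28, adjusted p = 1.50e-05). Itgad, an alpha chain of myeloid cells, had 0 reads in both controls and 92.1 and 66.1 counts with tamoxifen. Itgax, another myeloid alpha chain, had 0 and 2 reads in the controls and 117 and 87.7 counts with tamoxifen. Against a floor of 3 reads per control library, Itgad was at least 20.1-fold and Itgax at least 26.0-fold higher. Itgam, the alpha chain of Mac-1, was also higher (24.7 and 56.3 against 401 and 319, log2 fold change 3.23, SE 0.48, adjusted p = 0.000808), but 67.4% of its exon bases are shared with the overlapping model Gm49368, and the call was lost without tamoxifen library 1 (adjusted p = 0.0742) or 2 (adjusted p = 0.0701). The study's methods describe a CD45- sort, which the sample labels do not state. The 6 neutrophil markers summed to 220 to 274 in the controls and 76747 to 102943 with tamoxifen, while the 5 lymphocyte markers went from 65.7 to 88.9 up to 1850 to 2549. The part of these cells in the rises was not tested.

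Among the direct partners, Itgb4, which pairs only with alpha 6, had 153 and 191 counts in the controls and 499 and 531 with tamoxifen. It was higher (log2 fold change 1.58, SE 0.27, adjusted p = 0.00153) while Itga6 was lower, although its call was lost under quantile normalization (0.57, adjusted p = 0.0718) and without tamoxifen library 1 (adjusted p = 0.0573) or 2 (adjusted p = 0.0699). Itga2b, the platelet partner of Itgb3, measured 230.1 and 406 in the controls and 1000.3 and 797 with tamoxifen. Its rise (1.54, SE 0.30, adjusted p = 0.00330) was lost without tamoxifen library 1 (adjusted p = 0.124) or 2 (adjusted p = 0.0949). Besides Itgb1, the subunit that was lower was Itga10, a collagen receptor chain. It had 407 and 318 counts in the controls and 109 and 196 with tamoxifen (log2 fold change -1.29, SE 0.36, adjusted p = 0.0168). Its call was lost without trended variances (adjusted p = 0.0508), at equal totals (-0.82, adjusted p = 0.109) and without tamoxifen library 1 (-0.88) or 2 (-1.71). The overlapping model Gm42957 shares 33.5% of the Itga10 exon bases. Of the other beta 1 alpha chains, named after their values were seen, the collagen receptor chain Itga11 (12.3 and 13.8 against 42.3 and 87.0, log2 fold change 2.14) and the laminin receptor chain Itga7 (333 and 456 against 1424 and 2950.4, log2 fold change 2.39) were higher, unlike Itga1, Itga3 and Itga6. Itga8 (1.11) and Itga9 (0.72), RGD and tenascin receptor chains, were higher too. The call of Itga7 held under 14 of 14 alternatives and that of Itga11 under 11 of 13, with losses under quantile normalization (1.18, adjusted p = 0.0993) and without tamoxifen library 2 (adjusted p = 0.0897). That of Itga8 was lost under 3 of 14, quantile normalization (0.14, adjusted p = 0.660) and without tamoxifen library 1 (adjusted p = 0.101) or 2 (adjusted p = 0.162). That of Itga9 was lost under 5 of 14, which include leaving out control library 1 (adjusted p = 0.162), tamoxifen library 1 (adjusted p = 0.154) or 2 (adjusted p = 0.194).

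**Figure D3:**
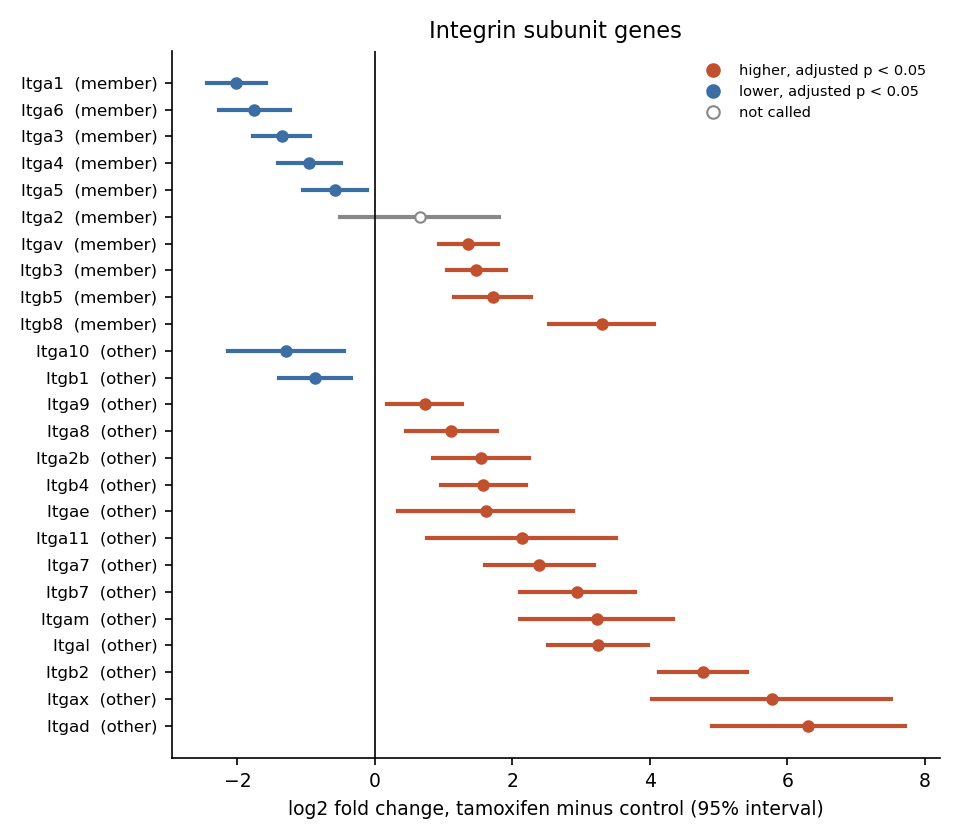
log2 fold change (tamoxifen minus control) of integrin subunit genes with 95% intervals from limma, the 10 matrix-binding genes above and 15 other subunits below. Filled points passed an adjusted p of 0.05, and the values run from -2.02 for Itga1 to 6.31 for Itgad, whose fitted value depends on the pseudocount since it had 0 reads in the controls.

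On the cytoplasmic side, talins and kindlins bind the beta tail and switch integrins on, and a set of adaptors and kinases links them to actin. Of the 28 listed partners, 27 passed the filter (Fermt1, with 0 and 2 control reads, did not). Of these 27, 5 were higher, 15 lower and 7 not past the test, with a median log2 fold change of -0.85. Over all tested genes, 33.4% were higher and 25.5% lower. The 15 lower partners include Ilk, whose values are uncertain since exons of genes on the opposite strand cover 90.4% of its exon bases. Talin 1 (Tln1) had 31974 and 35095 counts in the controls and 20693 and 15996 with tamoxifen. Its fall (-0.88, SE 0.23, adjusted p = 0.0113) was lost at equal totals (-0.41, adjusted p = 0.0859), under quantile normalization (-0.17, adjusted p = 0.401) and without control library 1 (adjusted p = 0.0517), control library 2 (adjusted p = 0.0743) or tamoxifen library 2 (adjusted p = 0.0690). Kindlin-2 (Fermt2), the widespread kindlin, went from 23872 and 22545 to 9223 and 8811 (-1.36, SE 0.18, adjusted p = 0.000414), and Fermt3, the kindlin of blood cells, from 112 and 220.3 to 1854 and 1261 (3.27, SE 0.35, adjusted p = 0.000182). The 2 kindlins thus moved in opposite directions, although exons of genes on the opposite strand cover 30.2% of the Fermt3 exon bases.

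The largest falls of this list were in adaptors of the integrin complex. Lims2 (PINCH-2), which joins integrin-linked kinase, had 12477 and 15055 counts in the controls and 1870 and 761 with tamoxifen (log2 fold change -3.52, SE 0.37, adjusted p = 0.000161). Parvb (beta-parvin), another member of that complex, had 46837 and 51741 against 11185 and 6571 (-2.52, SE 0.28, adjusted p = 0.000193). Tns1 (tensin 1), which ties beta tails to actin, had 60764 and 64898 against 13089 and 9452 (-2.50, SE 0.24, adjusted p = 0.000115). All 3 were lower in tamoxifen library 2 than in library 1. The largest rises were Apbb1ip (RIAM), a leukocyte adaptor that brings talin to the membrane (58.9 and 70.1 against 1769 and 1279, log2 fold change 4.53, SE 0.28, adjusted p = 2.12e-05), then Fermt3, and Ptk2b (Pyk2), a kinase akin to focal adhesion kinase (94.5 and 213 against 1045 and 831, log2 fold change 2.71, SE 0.39, adjusted p = 0.000677). The call of Ptk2b was lost without tamoxifen library 1 (adjusted p = 0.0797) or 2 (adjusted p = 0.0740). Exons of Chrna2 on the opposite strand cover 22.8% of the Ptk2b exon bases. The other 2 that rose, named after their values were seen, were Tns3 (2.50) and Parvg (2.08).

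**Figure D4:**
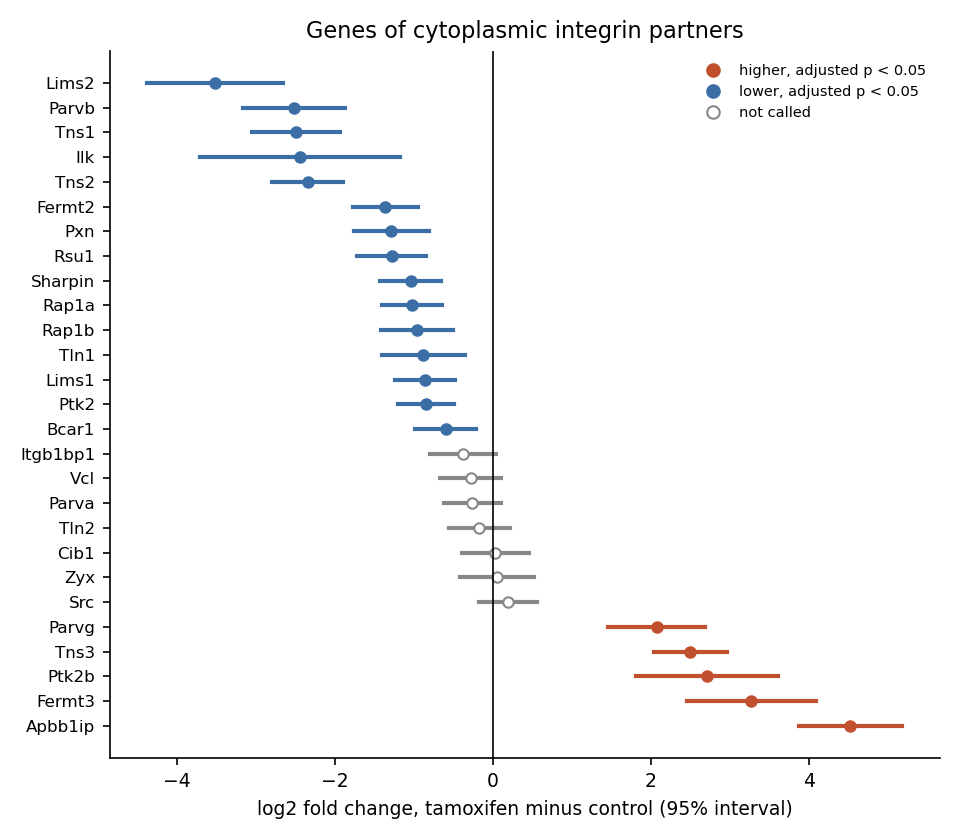
log2 fold change (tamoxifen minus control) of 27 genes of cytoplasmic integrin partners with 95% intervals from limma, ordered by value. They run from -3.52 for Lims2 to 4.53 for Apbb1ip, with 15 lower, 5 higher and 7 not past the test (open points).

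The genes of the ligands were split between rises and falls, beside 33.4% higher and 25.5% lower over all tested genes. Of 29 listed, all 29 were tested, and 15 were higher, 11 lower and 3 not past the test, with a median log2 fold change of 0.77, and 17 passed without tamoxifen library 1 or without library 2. Among the ligands of Itga1 and Itga2, the fibrillar collagen genes Col1a1 (367 and 494 against 29952 and 23125, log2 fold change 5.95, SE 0.20, adjusted p = 3.37e-06), Col1a2 (4.29) and Col3a1 (3.71) were higher, whereas Col4a1 (-1.28) and Col4a2 (-1.62) of the basement membrane were lower. The call of Col4a1 was lost under quantile normalization (-0.0066, adjusted p = 0.983) and when any 1 library was left out (adjusted p = 0.0544 to 0.174), and that of Col4a2 under quantile normalization (-0.28, adjusted p = 0.301) and without tamoxifen library 2 (adjusted p = 0.0506). The 5 fibroblast markers, which include Col1a1 and Col1a2, were all higher and summed to 1712 and 2439 in the controls and 61493 and 50945 with tamoxifen, and their part in these values was not tested.

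The laminin chains bound by Itga3 and Itga6 were split. Lama5, the alpha 5 chain of mature endothelial basement membrane, had 40448 and 38827 counts in the controls and 10353 and 6358 with tamoxifen (log2 fold change -2.29, SE 0.26, adjusted p = 0.000219). Lamb2 had 48269 and 51155 against 13465 and 8451 (-2.22, SE 0.26, adjusted p = 0.000274), and Lama4 was lower as well (-1.48). Lama1 (3.56), Lamb1 (1.65) and Lama2 (1.32) were higher, and Lamc1, the gamma chain common to most laminins, did not pass (-0.08, SE 0.25, adjusted p = 0.801). The rise of Lama2 was lost without trended variances (adjusted p = 0.0957) and without tamoxifen library 1 (adjusted p = 0.0592) or 2 (adjusted p = 0.237).

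For the fibronectin and RGD receptors, Fn1 (fibronectin) was the most abundant ligand gene by count, with 325531 and 341418 in the controls and 171817 and 110722 with tamoxifen. Both tamoxifen libraries lay below the controls, but the difference did not pass (log2 fold change -1.27, SE 0.50, adjusted p = 0.0598). Vtn (vitronectin) overlapped between the groups, at 7632 and 16895 against 10766 and 19724 (0.36, SE 0.41, adjusted p = 0.468). Spp1 (osteopontin), an RGD ligand of alpha v beta 3, showed the largest rise, from 127 and 120.2 to 37818 and 31141 (8.10, SE 0.16, adjusted p = 8.09e-07). Tnc (tenascin-C) rose from 112 and 98.9 to 5918 and 6427 (5.86, SE 0.18, adjusted p = 3.23e-06), and Ccn2, a secreted matricellular protein, fell from 17296 and 16915 to 3277 and 2137 (-2.69, SE 0.22, adjusted p = 6.22e-05). Vcam1, the cell surface ligand of Itga4, rose from 2050.5 and 2588 to 9058 and 11136 (2.12, SE 0.19, adjusted p = 8.30e-05) while Itga4 itself was lower.

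Of the genes of latent TGF-beta, on which the Itgav and Itgb8 receptor acts, 2 were higher and 3 lower, all named after their values were seen. Tgfb1 had 6923 and 7815 counts in the controls and 3308 and 2536 with tamoxifen (log2 fold change -1.34, SE 0.18, adjusted p = 0.000506). Tgfb3 rose from 127 and 171 to 487 and 499 (1.73, SE 0.28, adjusted p = 0.00135), a call lost under quantile normalization (0.69, adjusted p = 0.0510) and without tamoxifen library 1 (adjusted p = 0.0618) or 2 (adjusted p = 0.0707). The latency protein Ltbp1 rose from 507 and 506 to 3459 and 3683 (2.82, SE 0.16, adjusted p = 1.33e-05). Lrrc32 (-0.86) and Nrros (-0.99), which hold latent TGF-beta on the cell surface, were lower. The call of Lrrc32 was lost at equal totals (-0.39, adjusted p = 0.157) and without tamoxifen library 1 (adjusted p = 0.0730), and that of Nrros at equal totals (-0.52, adjusted p = 0.0511) and without tamoxifen library 1 (adjusted p = 0.0774) or 2 (adjusted p = 0.0922).

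**Figure D5:**
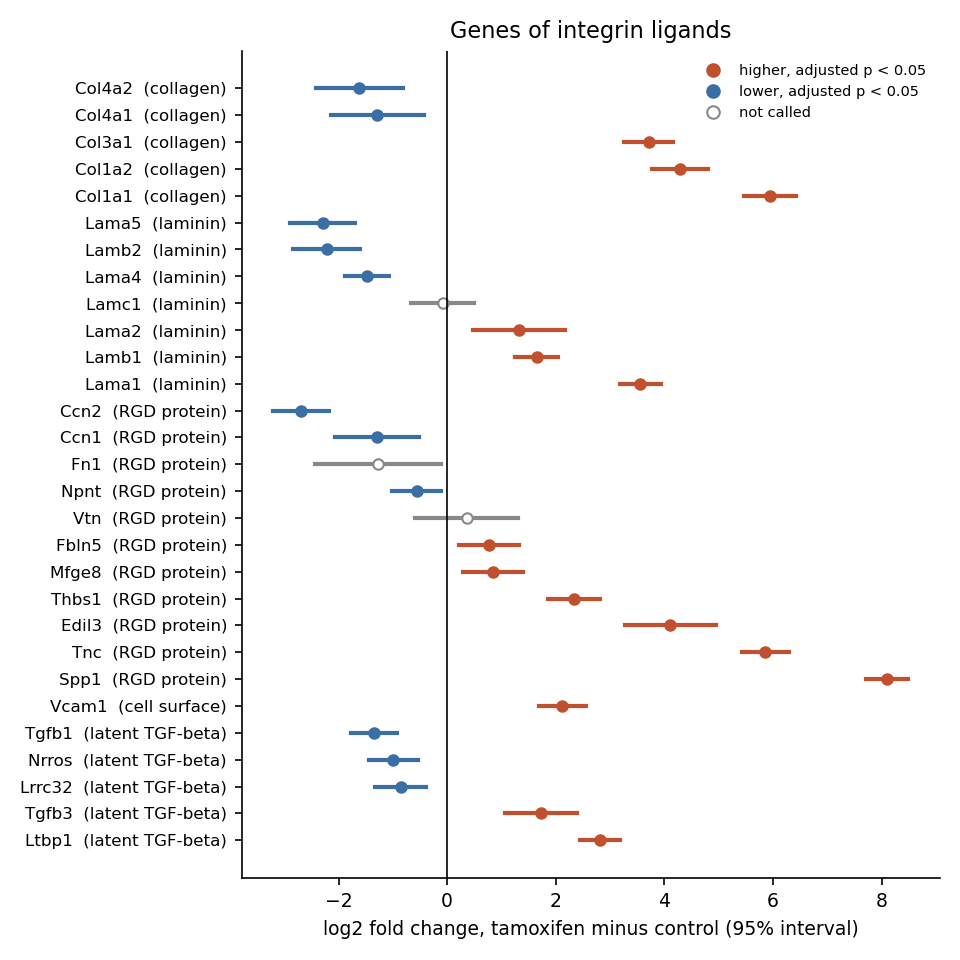
log2 fold change (tamoxifen minus control) of 29 genes of integrin ligands, grouped by kind, with 95% intervals from limma. Each kind with more than 1 gene holds both rises and falls, from -2.69 for Ccn2 to 8.10 for Spp1, and open points did not pass the test.

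The levels of cell type markers differed between the groups. All 8 endothelial markers were lower with tamoxifen, and their summed counts were 910308 and 881508 in the controls and 152984 and 77773 with tamoxifen. In bulk samples, fewer cells of a type and less RNA per cell cannot be told apart. Set against this sum, Itga1 came to 39.6 and 38.1 counts per 1000 endothelial marker counts in the controls and 55.0 and 113 with tamoxifen. Itga6 averaged 51.2 in the controls and came to 100.5 and 155 with tamoxifen, and Itgb8 went from 0.146 and 0.224 to 7.87 and 27.6. Each of the 10 genes was higher in both tamoxifen libraries than in both controls on this scale, the 5 lower ones included, so these 5 fell less than the summed endothelial markers did. Genes that fell less than this sum stand higher here, and the share of all tested genes that did so was not measured. The count therefore shows nothing particular to these 10 genes.

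Markers of several other cell types were higher too. The 5 astrocyte markers were all higher, with sums of 16067 and 13375 in the controls and 65474 and 130775 with tamoxifen. Per 1000 of these counts Itgb8 stood at 8.27 and 14.8, then 18.4 and 16.4. This ratio leans on Gja1, which held most of the control sums (11915 and 7273) and rose least of these markers (log2 fold change 1.51). Itgb8 (3.30) rose more than Gja1 and Gfap (2.68) but less than Aldh1l1 (3.60), Slc1a3 (3.73) and Aqp4 (3.89). The part of astrocyte RNA in the rise of Itgb8 was not tested. The 5 markers of oligodendrocyte precursors were also all higher (2398 and 3086, then 23882 and 55404), whereas 1 of the 8 pericyte and smooth muscle markers was higher (sums of 25709 and 45539, then 31947 and 65597). The largest part of the precursor sums with tamoxifen was Ptprz1 (14320 and 38626), and Pdgfra is also in the fibroblast list. The astrocyte, oligodendrocyte precursor, and pericyte and smooth muscle sums were higher in tamoxifen library 2 than in library 1. So were Itgb8, Itgb5, Itgav, Itga2 and Itga1. Itga6, Itga3, Itga4, Itga5 and Itgb3 were higher in library 1, as the sums of the other 9 marker lists were. This sets 1 library against 1 with no test. Any gene must be higher in 1 of the 2, so the match ties no gene to a cell type. Close pairs such as Itga4 (3630 and 3556) also depend on scaling, with normalized totals of 3.84e+07 and 3.58e+07.

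For Itgb3, all 4 platelet markers measured were higher, with sums of 162 and 245 in the controls and 2131 and 1640 with tamoxifen. Itgb3 came to 3093 and 2133 per 1000 platelet marker counts in the controls and 726 and 798 with tamoxifen, so that it rose less than they did. Its ratio to Itga2b overlapped between the groups (2.17 and 1.29, then 1.55 and 1.64), and the part of platelet RNA in its rise was not tested. The 4 erythroid markers (14874 and 29798, then 140234 and 92169), the 6 pluripotent cell markers (58.9 and 90.1, then 44096 and 34059) and the 5 cycling cell markers (999 and 1174, then 72336 and 70659) were all higher as well. Of the 6 microglia and macrophage markers, 4 were higher (sums of 1282 and 2452, then 3160 and 3061). No marker was at 0 in both libraries of a group, and Cd3e had 0 reads in control library 1.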

How the data were processed

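RNA-Seq was performed on 2 control and 2 tamoxifen libraries with a stranded mRNA kit. The authors mapped the reads to GRCm39 (STAR 2.7.10a), counted them in the same step, removed genes of low count and used DESeq2 1.36.0 for normalization. The annotation release, strand setting and low-count limit are not given in the sources used here. Each deposited value is a signal, the count of a gene over 1 factor of its library, and whole reads could be recovered (100% of values whole within 0.01 reads). Columns headed C were read as control and those headed A as tamoxifen, a letter the labels do not give. Libraries are pools of mice, and the labels do not say whether the 2 of a group came from separate sorts, so p-values measure only the spread between these libraries.

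Differential expression was tested on log2(normalized count + 1) in limma 3.58.1 (R 4.3.3), using lmFit and then eBayes with its trend option, for genes whose mean reached 10, with Benjamini-Hochberg adjustment over all tested genes. Adding 1 makes changes of sparse genes look smaller. The study's size limit, an absolute log2 fold change over 1, was given in addition. On simulated data over 20375 genes, the test recovered 55 of 99 genes changed by 1 and 92 of 93 changed by 2 on the log2 scale. Of the calls of changed genes 0 were in the wrong direction, and 7 unchanged genes were called. The simulation changed few genes and used 1 dispersion for all, whereas 12071 genes passed in the data. Its recovery rates therefore do not carry over to this comparison. As alternatives, the pseudocount was set to 0.5 or 5, the filter was dropped or raised to 100, libraries were given equal totals or quantile normalized, the trend was left out, the replicate number was added as a block, recovered reads were tested with edgeR 4.0.16 or DESeq2 1.42.0, and each library was omitted in turn. Levels per kilobase used the exon union of GENCODE M39, or the longest transcript as an alternative. Promoters came from RefSeq (GRCm38.p6).

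Named were the 10 genes, in each of the 3 other integrin lists the 3 largest rises and falls past the test, the fixed genes Itgb1, Itgb4, Itga2b, Itgam, Itgb2, Tln1, Fermt2, Fermt3, Fn1, Vtn and Vcam1, and Mgp. Further subunit, ligand, adaptor and filtered genes were named after their values were seen. The 10 genes and all lists were chosen with earlier results of these data known.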

Additional observations from a re-analysis of the deposited data

How the results depend on the processing

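The counts of genes past the test were 12071 of all genes, 9 of the 10 matrix-binding integrin genes, 15 other subunits, 20 cytoplasmic partners and 26 ligands. They stayed within 1.5 times of these under the alternatives that kept all libraries, except that 9 other subunits passed under quantile normalization. With 1 library left out, 5577 to 11933 genes passed, and 6 to 8 of the 10, 6 to 14 other subunits, 14 to 20 partners and 17 to 25 ligands. The lowest counts came without tamoxifen library 2 (5577 genes, 6 of the 10, 6 other subunits) and tamoxifen library 1 (6539 genes, 8 of the 10, 8 other subunits), and both left 17 ligands. These fits leave 1 library in a group, which is assumed to vary like the other group. Of the 139 values of the 10 genes under alternatives, 127 kept direction and call, 11 lost the call and 1 turned, Itga2 at -0.43 under quantile normalization.

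Samples of the groups share replicate numbers, but deviations of same-numbered libraries correlated at only 0.0251 over 20485 genes. With the replicate number as a block, 12635 genes, 9 of the 10, 15 other subunits, 20 partners and 26 ligands passed, and no pairing was used. The 2 libraries of a group differed beyond sampling noise, with a mean chi-square per gene of 33.1 in controls and 81.3 with tamoxifen where sampling gives 1. Genes under about 100 counts, such as Itga2, have wide intervals at this depth.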
